A study of Caenorhabditis elegans with 3 samples.

Results

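The glutathione S-transferase (GST) genes of Caenorhabditis elegans were taken as all genes whose deposited symbol starts with gst- or gsto-. There were 43 of them among 19194 genes in the series table, and all 43 had at least 1 estimated read in the 3 libraries together. They were described over 3 stages of the wild-type strain N2, namely mixed-stage embryos, L1 larvae, newly hatched worms, and young adults, the larvae and adults as whole worms. Polyadenylated RNA was sequenced directly on a nanopore device, so native strands were read without amplification. Each stage was 1 library, with no treatment and no replicate, and the labels do not give the worms' exact ages or how the stages were synchronised.

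GST enzymes join the tripeptide glutathione to reactive or lipophilic compounds, which makes these more soluble and ready for export. They form structural classes (pi, zeta, omega and others), and some members also carry out isomerase, reductase or peroxidase reactions. In C. elegans the family is greatly expanded, many members are transcribed in the intestine, and several, gst-4 first among them, are known targets of the stress-responsive transcription factor SKN-1.

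Estimated reads numbered 941707 in embryos, 1017061 in L1 larvae and 1611049 in young adults. A level is given in RPM, the reads of a gene per 1000000 reads of its library, and 3 reads, the limit that a count of 0 allows, came to 3.19, 2.95 and 1.86 RPM in that order. Ratios between libraries are ratios of these read shares, with exact 95% conditional binomial intervals in parentheses. The intervals cover counting error only, so every difference compares single libraries and no p-value was computed. A gene was measured in a pair of libraries with at least 20 reads over the pair, and it was called higher or lower only where the whole interval lay at least 2-fold from 1. The young adult library held 8918 reads of the 6 yolk protein (vit-) genes, the L1 library 524 and the embryo library 0. Reads of the 32 major sperm protein (msp-) genes numbered 11720, 609 and 3 in the same order. The L1 levels of these lists were 9.31% and 8.23% of the adult levels, although both gene sets are known to be transcribed near and in adulthood. A list of 12 embryo markers gave 2093 reads in the embryo library, 341 in L1 and 1645 in adults. Of its genes, 9 had reads in L1 and in adults, among them pos-1 with 74 and 622, and hch-1, end-1 and end-3 were at 0 in both. The adult reads were uneven, with mex-5, lin-26, pal-1, pie-1 and nos-2 at 460, 182, 179, 157 and 31. Genes ceh-13, elt-1 and hlh-1 gave 5, 7 and 2 in adults, against 143, 95 and 77 in the embryo. The part that embryo RNA had in the adult values was not tested. The part that adult RNA had in the L1 values of GST genes was not tested.

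The family as a whole took a similar share of the reads at each stage. GST genes together gave 1361 reads in the embryo library, which was 0.145% (0.137 to 0.152, exact binomial interval) of all reads. They gave 1376 reads or 0.135% (0.128 to 0.143) in L1, and 2488 reads or 0.154% (0.148 to 0.161) in young adults. The L1 share was 0.936 times the embryo share (0.868 to 1.01), the adult share was 1.14 times the L1 share (1.07 to 1.22) and 1.07 times the embryo share (1.0 to 1.14). This closeness depended on the scaling. With TMM factors, which set the bulk of genes equal, the joint ratio was 1.71 for L1 against embryo and 1.85 for adult against embryo. TMM moved the median of all genes by 0.87 on the log2 scale in the first of these comparisons, by -0.07 between adult and L1, and by 0.80 between adult and embryo.

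What changed between the stages was which GST genes made up the share. The run of 7 genes from gst-20 to gst-19 on chromosome II supplied 16.2% of the GST reads in embryos (14.3 to 18.3), 6.32% in L1 (5.09 to 7.74) and 2.29% in adults (1.74 to 2.96). The run of 9 genes from gst-26 to gst-35 on the same chromosome went the other way, with 2.71% (1.92 to 3.72), 11.8% (10.2 to 13.7) and 17.9% (16.4 to 19.5). These shares lie within the family, so they do not depend on the scaling between libraries. The intervals of the 3 stages did not overlap for either run, but this held for all 4 runs of neighbouring GST genes. The run that holds gst-7 supplied 35.4%, 28.8% and 23.3% of the GST reads in embryos, L1 and adults. The run on chromosome IV supplied 3.37%, 8.93% and 5.59%. Gene sets outside the family were not compared in this way.

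**Figure D1:**
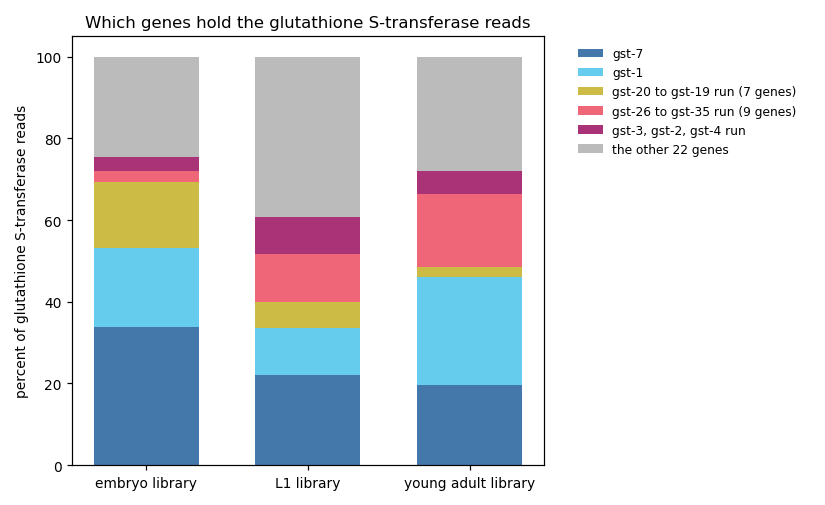
Make-up of the GST reads in each library: stacked bars give the percent of all GST reads in the mixed-stage embryo, L1 larva and young adult libraries taken by gst-7, gst-1, 3 runs of neighbouring genes and the other 22 genes. The gst-20 to gst-19 run narrows from 16.2% to 2.29% while the gst-26 to gst-35 run widens from 2.71% to 17.9%.

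A pair of genes dominated. Gene gst-7 (F11G11.2, chromosome II, 4882062 to 4883358, plus strand, WBcel235) gave 462 reads in the embryo library, 304 in L1 and 490 in young adults. It made up 33.9% of the GST reads in embryos (31.4 to 36.5), 22.1% in L1 (19.9 to 24.4) and 19.7% in adults (18.2 to 21.3). It was the largest member in embryo and L1, and its embryo share of the family lay above the other two. Gene gst-1 (R107.7, chromosome III, 9059331 to 9060181, plus strand), a pi-class enzyme, gave 261, 159 and 657 reads. It made up 19.1% (17.1 to 21.3), 11.5% (9.91 to 13.4) and 26.4% (24.7 to 28.2) of the GST reads and was the largest member in adults. Together they held 53% of the GST reads in embryos, 33.6% in L1 and 46.1% in adults, so the share of the other members was highest in L1. Summed over the libraries, gst-7 gave 1257 reads and gst-1 1077. The next genes, gst-27, gst-36 and gst-5, gave 325, 309 and 300.

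In RPM, gst-7 stood at 491 in the embryo, 299 in L1 and 304 in young adults. Its L1 share was 1.64-fold below the embryo share (1.42 to 1.90) and its adult share 1.61-fold below it (1.42 to 1.84), while adult and L1 gave a ratio of 1.02 (0.880 to 1.18). None of these reached the 2-fold bound, and all 3 changed direction with TMM factors. Gene gst-1 stood at 277, 156 and 408 RPM. Its adult share was 2.61-fold above its L1 share (2.19 to 3.12), which was called, and 1.47-fold above its embryo share (1.27 to 1.71), which was not. The L1 value was 1.77-fold below the embryo value (1.45 to 2.17), a direction that also flipped with TMM factors. The adult call of gst-1 against L1 was lost where ribosomal protein and mitochondrial genes were left out of the library totals, where the ratio was 2.33 (1.96 to 2.79).

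**Figure D2:**
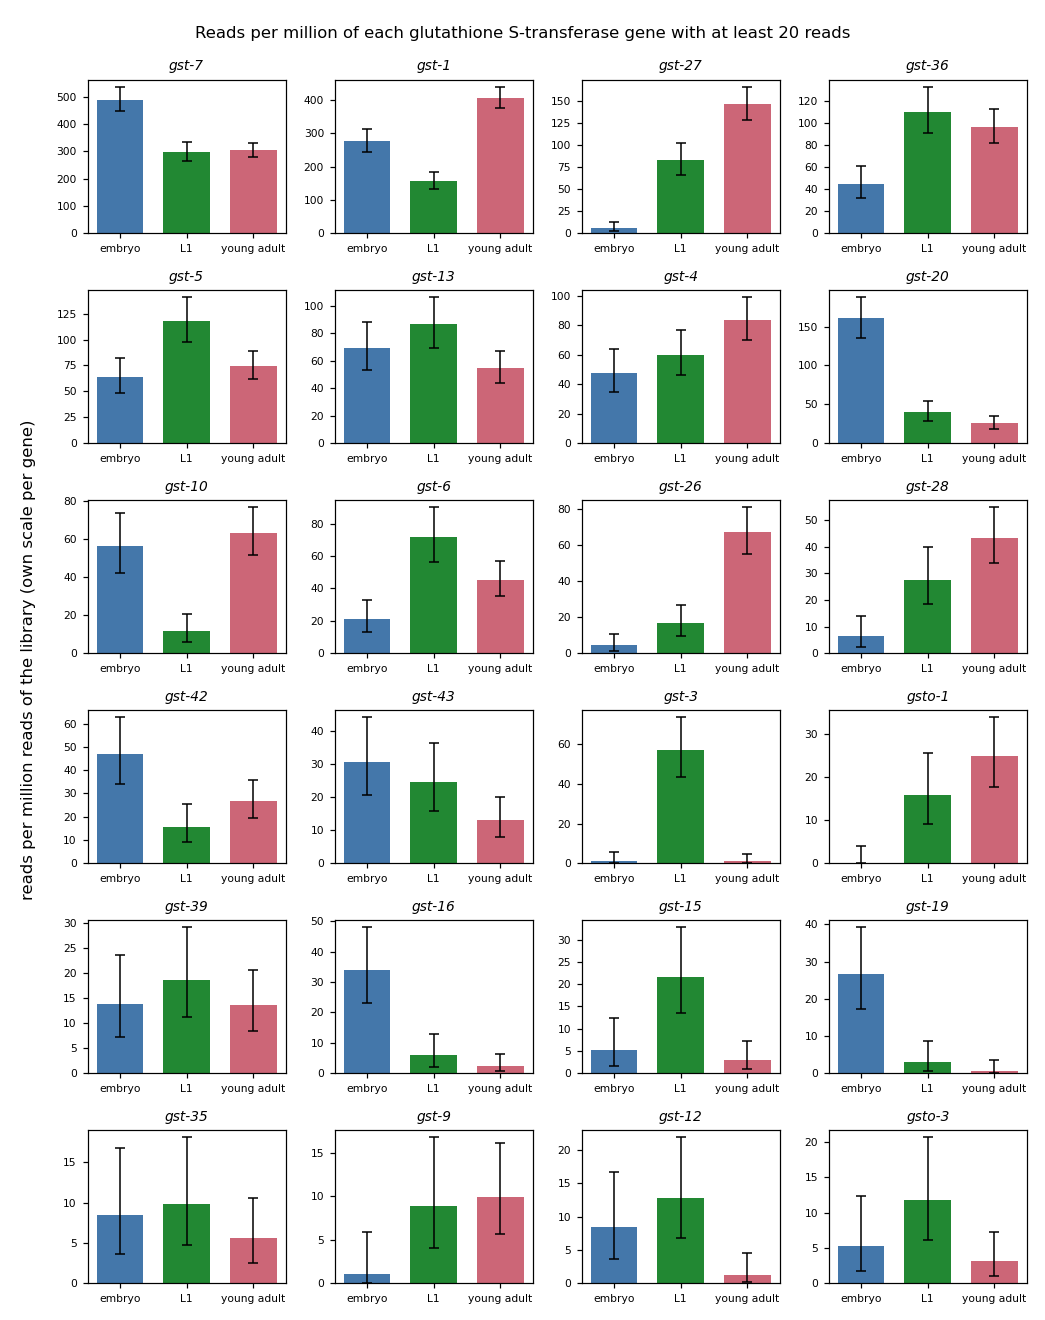
Levels of the 24 GST genes with at least 20 reads in all, 1 panel per gene with its own scale: bars give RPM in the mixed-stage embryo, L1 larva and young adult libraries, and error bars exact 95% counting intervals. gst-20, gst-16 and gst-19 are tallest in the embryo, gst-3 and gst-15 in L1, and gst-27, gst-26 and gsto-1 in adults.

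Other genes of known class had lower and differing levels. Gene gst-10 (Y45G12C.2, chromosome V, 2561690 to 2564645, plus strand), a pi-class enzyme known to conjugate the lipid peroxidation product 4-hydroxynonenal, gave 53 reads in the embryo library, 12 in L1 and 102 in adults. It was low in L1 against both neighbours, 4.77-fold below embryo (2.52 to 9.81) and 5.37-fold below adult (2.94 to 10.7). Adult and embryo shares gave a ratio of 1.12 (0.800 to 1.60). The L1 call against embryo was lost with TMM factors, and the call against adult was not. Both pi-class genes, gst-1 and gst-10, thus had their lowest share of reads in L1, although the L1 level of gst-1 lay slightly above embryo with TMM factors.

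Gene gst-42 (D1053.1, chromosome X, 11726264 to 11727936, minus strand) is a zeta-class member, a counterpart of the human maleylacetoacetate isomerase of tyrosine breakdown. It gave 44, 16 and 43 reads, or 46.7, 15.7 and 26.7 RPM. Its L1 share was 2.97-fold below embryo (1.64 to 5.64), and the adult share was 1.70-fold above L1 (0.936 to 3.23), neither past the bound. It was highest in embryos and was called in no pair. Of 4 other genes of the same pathway, tatn-1, the tyrosine aminotransferase of its first step, gave 108, 656 and 166 reads. It was 5.62-fold higher in L1 than in embryo (4.58 to 6.96) and 6.26-fold lower in adult than in L1 (5.27 to 7.47). The other 3 (hpd-1, hgo-1 and fah-1) were measured in every pair and, with library totals, called in none. With TMM factors 2 of the 4 were higher in L1 than in embryo, beside 18.8% of all genes. With library totals 1 was, beside 13.4%. In adult against embryo 1 of the 4 was higher with TMM factors, beside 19.6% of all genes, and 0 with library totals, beside 13.2%. Adult against L1 had 1 lower under both, beside 14.9% and 14.2%.

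The omega class has an active-site cysteine and reduces thiols and dehydroascorbate. Its leading member gsto-1 (C29E4.7, chromosome III, 7945542 to 7947018, minus strand), known in worms as an intestinal stress-resistance gene, gave 0 reads in the embryo library, 16 in L1 and 40 in adults. Its adult level of 24.8 RPM was at least 7.79-fold above the embryo limit of 3 reads, and the exact interval of the ratio began at 6.05, which was called. With 16 reads over the pair it was not measured between L1 and embryo, where the ratio against that limit was at least 4.94-fold with an exact interval from 3.57. Adult against L1 gave 1.58 (0.864 to 3.02). Member gsto-3 gave 5, 12 and 5 reads and was measured in no pair. The omega genes gst-44, with 1, 4 and 3 reads, and gsto-2, with under 5 in all, were near the floor. A list of 14 intestinal marker genes, all with reads in every library, summed to 1317, 2618 and 3983 RPM. One gene, asp-1, carried that increase with 230, 1710 and 4502 reads, and the other 13 summed to 1073, 937 and 1188 RPM. Of 13 genes on the list measured between L1 and embryo, 5 were higher and 4 lower, beside 13.4% and 33% of all genes. The part of intestinal RNA in the gsto-1 values was not tested. In whole-worm RNA, fewer cells of a type and less RNA per cell cannot be told apart.

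Many GST genes lay side by side. Of the 43 genes, 23 were on chromosome II, 8 on V, 4 each on III and IV, 3 on X and 1 on I. Runs of at least 3 members, each at most 10 kb from the next, numbered 4 and held 23 members, and 3 of these runs were on chromosome II. Gene structure differed between them too: 19 of the 20 genes in the chromosome II runs had 2 exons in their longest transcript, and 4 of the 20 genes outside runs did. Neighbouring copies can be near-identical, and how reads matching several copies were assigned is not given, so single genes of a run are less certain than the run's sum. The pooled estimate was a whole number (within 0.01) for 17 of 43 members and for 40.3% of all genes with reads.

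The run from gst-20 to gst-19 (chromosome II, 13608154 to 13627145, all on the minus strand) contains gst-20, gst-24, gst-15, gst-14, gst-12, gst-16 and gst-19. It gave 221 reads in the embryo library, 87 in L1 and 57 in adults. The run's share was 2.74-fold lower in L1 than in embryo (2.13 to 3.56), 2.42-fold lower in adult than in L1 (1.71 to 3.44) and 6.63-fold lower in adult than in embryo (4.94 to 9.04). With TMM factors the first ratio was 0.667, short of 2-fold, and the last 0.262, still past it. Most of the embryo reads came from gst-20, which gave 151, 41 and 41 reads and was 3.98-fold lower in L1 (2.80 to 5.76) and 6.30-fold lower in adult (4.44 to 9.13) than in embryo.

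Its neighbours gst-16, with 32, 6 and 4 reads, and gst-19, with 25, 3 and 1, followed the same order. Both were called lower than embryo in both later libraries, gst-16 by 5.76-fold (2.38 to 16.9) and 13.7-fold (4.85 to 53.3), gst-19 by 9.0-fold (2.75 to 46.6) and 42.8-fold (7.0 to 1756). The L1 calls of gst-20, gst-16 and gst-19 were all lost with TMM factors. The run was not uniform. Gene gst-15 gave 5, 22 and 5 reads, with its adult share 6.97-fold below L1 (2.58 to 23.6), and gst-12 gave 8, 13 and 2, so both were highest in L1. The remaining members, gst-14 and gst-24, had under 5 reads each.

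The run from gst-26 to gst-35 (chromosome II, 15163817 to 15185389, all on the minus strand) contains gst-26, gst-27, gst-28, gst-29, gst-39, gst-31, gst-32, gst-34 and gst-35. It gave 37 reads in the embryo library, 163 in L1 and 445 in adults. Its share was 4.08-fold higher in L1 than in embryo (2.84 to 6.0), 1.72-fold higher in adult than in L1 (1.44 to 2.08) and 7.03-fold higher in adult than in embryo (5.02 to 10.1). With TMM factors the first and last ratios were 7.47 and 12.2. Gene gst-27 (15164890 to 15165731) led it with 5, 84 and 235 reads, and went from 0.367% of GST reads in the embryo to 9.45% in adults. It was 15.6-fold higher in L1 (6.41 to 49.1) and 27.5-fold higher in adult (11.6 to 85.4) than in embryo.

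The neighbours gst-26 and gst-28 had the same order at lower levels. Gene gst-26 gave 4, 17 and 108 reads, 15.8-fold higher in adult than in embryo (5.99 to 59.0) and 4.01-fold higher than in L1 (2.39 to 7.14). Gene gst-28 gave 6, 28 and 70, 6.82-fold higher in adult than in embryo (2.98 to 19.2), while its 4.32-fold L1 ratio to embryo (1.76 to 12.8) missed the bound. Further along the run, gst-39 gave 13, 19 and 22 reads and was called in no pair. At its far end gst-35 gave 8, 10 and 9 and was measured in no pair. Genes gst-29, gst-31, gst-32 and gst-34 had under 5 reads each. The part of intestinal RNA in the values of this run was not tested either.

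**Figure D3:**
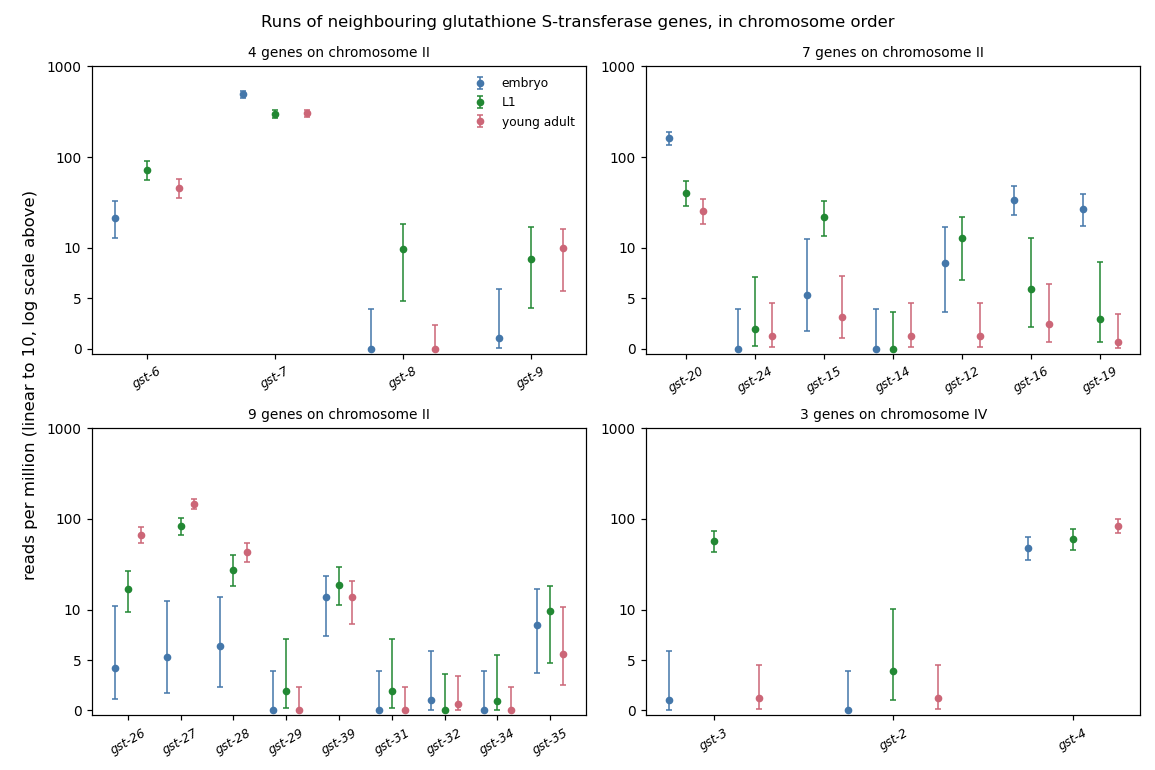
The 4 runs of neighbouring GST genes, with genes in chromosome order: points give RPM in the mixed-stage embryo, L1 larva and young adult libraries, on an axis that is linear up to 10 and logarithmic above, and bars exact 95% counting intervals. Embryo points are highest for gst-20, gst-16 and gst-19, adult points for gst-26, gst-27 and gst-28, and genes of 1 run differ.

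The other 2 runs behaved less evenly. The run on chromosome II that holds gst-7 (4879891 to 4893573, all on the plus strand) also contains gst-6, gst-8 and gst-9, and gave 483, 396 and 579 reads. Its L1 ratio to embryo was 0.759 and its adult ratio 0.701, both above 1 with TMM factors (1.39 and 1.22). Within it gst-6 gave 20, 73 and 73 reads and was 3.38-fold higher in L1 than in embryo (2.04 to 5.85), where gst-7 was lower. Its adult ratio to embryo was 2.13 (1.29 to 3.70). Genes gst-9, with 1, 9 and 16 reads, and gst-8, with 0, 10 and 0, were low.

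The run on chromosome IV (10139380 to 10143099) contains gst-3 and gst-2 on the minus strand and gst-4 on the plus strand, and gave 46, 123 and 139 reads. Its share was 2.48-fold higher in L1 than in embryo (1.75 to 3.55). The genes in it differed. Gene gst-3 gave 1, 58 and 2 reads, which put L1 53.7-fold above embryo (9.27 to 2157) and 45.9-fold above adult (12.2 to 388), with the reads beyond L1 too few to fix the size. Gene gst-4, the usual reporter of SKN-1 activity, gave 45, 61 and 135 reads, or 47.8, 60.0 and 83.8 RPM. Its adult ratio was 1.75 to embryo (1.24 to 2.52) and 1.40 to L1 (1.03 to 1.92), so it was called in no pair, although TMM factors carried the first past the bound. Gene gst-2 gave 0, 4 and 2 reads.

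Among the other genes outside runs, gst-36 and gst-5 were the most abundant after gst-1. Gene gst-36 (R07B1.4, chromosome X, 9861646 to 9862960, minus strand) gave 42, 112 and 155 reads, at 2.47 times embryo in L1 (1.72 to 3.61) and 2.16 times in adult (1.53 to 3.11). Gene gst-5 (R03D7.6, chromosome II, 10950352 to 10951603, plus strand) gave 60, 120 and 120 reads, at 1.85 times embryo in L1 (1.35 to 2.57) and 1.58-fold lower in adult than in L1. In RPM both were highest in L1 and neither was called in any pair, although TMM factors called both higher in L1 than in embryo. Gene gst-13 gave 65, 88 and 88 reads, or 69.0, 86.5 and 54.6 RPM, and gst-43 gave 29, 25 and 21 reads, or 30.8, 24.6 and 13 RPM. Neither was called in any pair. The adult share of gst-43 was 2.36-fold below its embryo share (1.30 to 4.36), and its L1 share moved from below to above embryo with TMM factors.

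Counted over genes, the comparison of L1 with embryo measured 20 of the 43 members. Of these 3 were higher (gst-6, gst-3 and gst-27), 4 were lower (gst-16, gst-19, gst-10 and gst-20) and 13 were neither. Of all genes measured in that pair, 13.4% were called higher and 33% lower. The median log2 ratio was 0.37 over the measured members and -1.14 over all genes measured. With TMM factors 8 members were higher and 0 lower, since gst-15, gst-5, gst-36, gst-26 and gst-28 came in and all 4 lower calls dropped out. The shares of all genes with TMM factors were 18.8% higher and 13.5% lower.

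Young adult against L1 measured 19 members, with 3 higher (gst-1, gst-10 and gst-26) and 2 lower (gst-15 and gst-3), against backgrounds of 14.5% and 14.2%. The median log2 ratio was 0.02 for the members and 0.32 for all genes. The L1 level of gst-1 was 38.3% of its adult level (32.0 to 45.7). That of gst-10 was 18.6% (9.32 to 34.0) and that of gst-26 was 24.9% (14.0 to 41.8). The oocyte and eggshell marker list stood at 15.6%, which lies within the intervals of gst-10 and gst-26. The yolk and sperm lists stood at 9.31% and 8.23%, below the interval of each of these genes. The part of adult RNA in these L1 values was not tested.

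Young adult against embryo measured 18 members, with 4 higher (gsto-1, gst-26, gst-27 and gst-28) and 3 lower (gst-16, gst-19 and gst-20), against backgrounds of 13.2% and 29.3%. The medians were 0.19 for the members and -0.71 for all genes. With TMM factors the higher genes numbered 8, with gst-6, gst-4, gst-36 and gst-1 added, against 19.6% of all genes. Across the 3 pairs, which share libraries, 12 of the 24 members with at least 20 reads were called at least once, 7 of them in 2 pairs and 0 in 3. Of all 9605 genes with that many reads, 60.3% were called at least once, 34.4% in 2 pairs and 3.97% in 3. With TMM factors 15 of the 24 members were called at least once, against 50.0% of all genes. Of the 12 members not called with library totals, gst-35 and gsto-3 were measured in no pair. The members kept for a pair had to have reads in it, so their counts do not speak for the rest of the family.

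**Figure D4:**
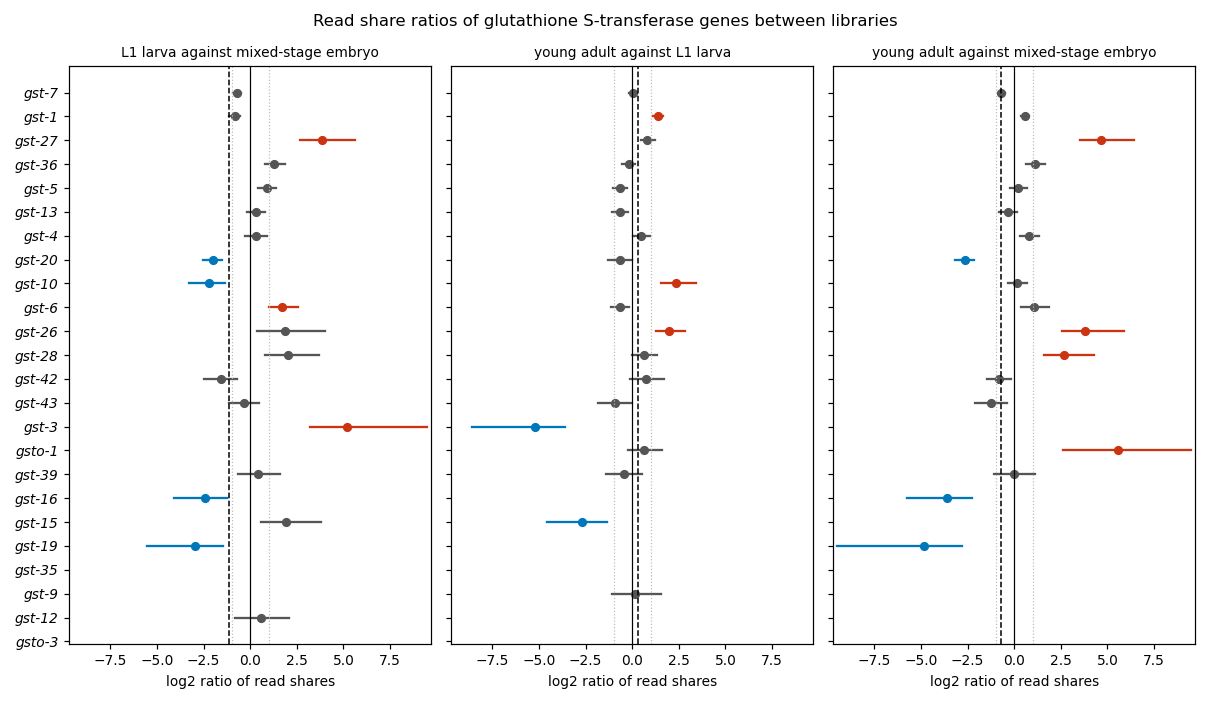
Ratios of read shares (log2 axis) between each pair of the 3 libraries for GST genes with at least 20 reads over the pair: points are ratios, bars exact 95% counting intervals, red called higher, blue lower and grey neither, the dashed line the median of all genes and dotted lines 2-fold. Some intervals, such as that of gst-3, are cut off at the axis edge, gsto-1 is drawn with a prior of 0.5 reads in the embryo, and most members in each pair are grey.

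The stage at which each gene peaked was spread over the 3 libraries. Of the 24 members with at least 20 reads, 6 had their highest level in the embryo, 10 in L1 and 8 in adults. Over all 9605 genes with that many reads the shares were 57.1%, 20% and 22.9%. With TMM factors the members' numbers were 4, 12 and 8, and those of all genes 36.4%, 28.1% and 35.5%; gst-7 and gst-43 moved from embryo to L1. Another 9 members had 6 to 17 reads, and 6 of these 9 were highest in L1, the sums of the 9 being 14, 59 and 33 reads. Among them gst-41 gave 0, 14 and 2 reads, gst-11 gave 1, 10 and 1, gst-40 gave 4, 11 and 0, and gst-22 gave 1, 4 and 12. Some of the L1 peaks rested on 4 reads, as for gst-44 with 1, 4 and 3 and gst-2 with 0, 4 and 2. The share of all genes in this read range that peaked in L1 was not computed. The 6 peaks therefore do not show that the family leans to L1. The last 10 members had 1 to 4 reads each and 22 in all.

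At the level of transcripts, 332 isoform rows belonged to GST genes, and 43 of them carried the name of an annotated transcript. The annotated rows held 30.2% of GST reads, against 17.0% of the reads of all genes; the other rows are named by a read and give no exon structure. The row with most reads was an annotated one in 5 of the 24 members with at least 20 reads. It held 94.7% of the reads of gst-27, 81.6% of gst-5, 64.0% of gst-39, 58.5% of gst-26 and 56.3% of gst-42. At the other end, gst-4, gst-3 and gst-15 had 0% of their reads on annotated rows, and gst-13, gst-35 and gst-9 had no such row.

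The row with most reads over the 3 libraries was also first in each library where the gene had at least 20 reads, in 41 of 41 cases over 20 genes. Only 13 of these genes had that many reads in 2 or more libraries. That row was picked on the sum of the same libraries, which favours its coming first in each, so the count does not show a constant leading row. Among the 13 genes, only gst-36 had intervals for the leading row's share of reads that did not overlap between stages. That gene stood out among many comparisons, so it alone does not show a stage difference. Genes outside the family were not compared in this way. For gst-7 the leading row held 55.0% of the gene's reads in the embryo, 54.9% in L1 and 60.6% in adults. For gst-5 it held 78.3%, 79.2% and 85.8%, and the intervals of both genes overlapped between stages. For gst-36 it held 45.2% in the embryo (29.8 to 61.3), 48.2% in L1 (38.7 to 57.9) and 67.1% in adults (59.1 to 74.4), so the L1 and adult intervals did not overlap. For gst-42 it held 40.9% in the embryo (26.3 to 56.8) and 69.8% in adults (53.9 to 82.8), intervals that overlap slightly. Library values of a row may come from dividing a pooled estimate, so such shifts within a gene are less certain than gene sums.

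Other genes of the glutathione system had their own stage profiles in RPM, and these moved with TMM factors. The 13 genes of glutathione synthesis and recycling, which supply the co-substrate, summed to 1241 RPM in the embryo, 682 in L1 and 943 in adults. With TMM factors the ratios of these sums to embryo were 1.01 in L1 and 1.32 in adults, so the embryo was no longer highest. All 13 were measured, and L1 against embryo called 0 higher and 3 lower (glrx-22, C53D5.5 and E01A2.1), none of which stayed with TMM factors. Over all genes that pair called 13.4% higher and 33% lower. Adult against L1 called 0 of the 13 in each direction, beside 14.5% and 14.2% of all genes. The glutathione peroxidases, 8 genes, summed to 189, 284 and 153 RPM. With TMM factors the ratios of their sums to embryo were 2.75 in L1 and 1.41 in adults. Of 6 measured, 3 were higher in L1 than in embryo, where 13.4% of all genes were. One of these, gpx-5, gave 20, 118 and 86 reads and was 5.46-fold higher (3.38 to 9.27). The kappa class and other proteins with a GST-like fold, 10 genes, summed to 1372, 2716 and 2851, mostly the elongation factor subunit gene eef-1G with 1124, 2543 and 4075 reads.

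Downstream, the mrp- genes encode transporters that export glutathione conjugates. The 8 of them summed to 209, 143 and 107 RPM, with mrp-5 and mrp-1 lower in adult than in embryo among 5 measured, calls that were lost with TMM factors. Of all genes measured in that pair, 29.3% were lower, or 17.3% with TMM factors. Upstream, the 7 genes of SKN-1 regulation summed to 625, 378 and 235. Of these, 5 of 7 were lower in adult than in embryo (3 of 7 with TMM factors), beside the same 29.3% and 17.3% of all genes. Gene skn-1 itself gave 188, 106 and 87 reads, 3.70-fold lower in adult than in embryo (2.85 to 4.82), a call lost with TMM factors at 2.12-fold lower (1.64 to 2.77). Gene wdr-23, which encodes its repressor, gave 137, 126 and 97. In RPM both sums were highest in the embryo and lowest in adults, an order that turns between embryo and L1 with TMM factors, while the joint GST level stood at 1445, 1353 and 1544 RPM.

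The other detoxification families also differed in profile. The 75 cytochrome P450 (cyp-) genes, whose enzymes oxidise foreign compounds, summed to 447, 980 and 608 RPM, and 9 of 18 measured were higher in L1 than in embryo with 3 lower, or 11 and 0 with TMM factors. The backgrounds for that pair were those given above, 13.4% and 33%, or 18.8% and 13.5% with TMM factors. The 65 UDP-glucuronosyltransferase (ugt-) genes, which like GSTs attach a soluble group, summed to 970, 814 and 1182. With TMM factors the ratios of these sums to embryo were 1.54 in L1 and 2.12 in adults. Of 32 measured, 4 were higher in L1 than in embryo and 3 lower, or 9 and 1 with TMM factors. In RPM the P450 sum was highest in L1, where the GST sum was lowest, although with TMM factors the GST ratio of L1 to embryo was 1.71.

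**Figure D5:**
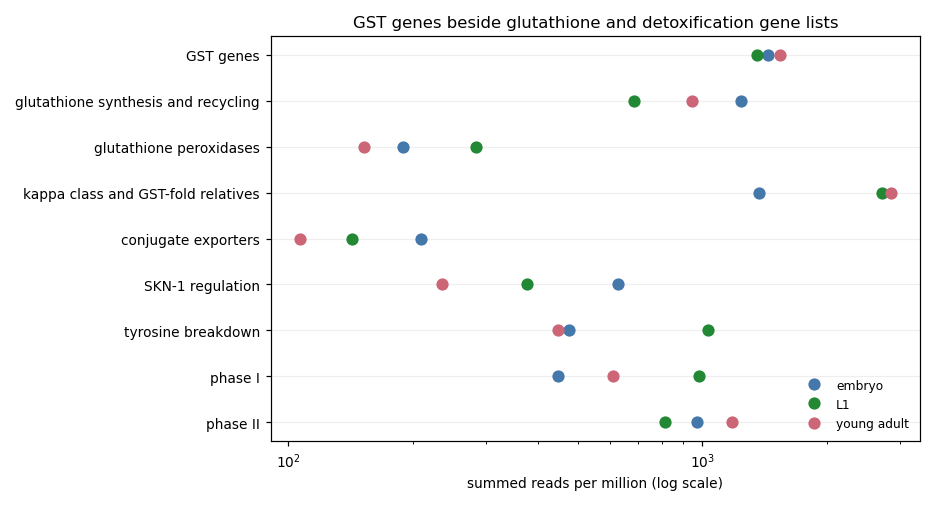
RPM (log axis) summed over the GST genes and over 8 lists of related genes: each point is 1 of the mixed-stage embryo, L1 larva and young adult libraries, phase I being cyp- and phase II ugt- genes. The GST sum of 1445, 1353 and 1544 spans a narrower range in RPM than those of the P450 or SKN-1 lists; with TMM factors, not drawn, its ratios to embryo are 1.71 and 1.85 and those of the SKN-1 list 1.11 and 0.654.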

How the data were processed

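Direct RNA libraries of 3 stages, 1 per stage, were sequenced on a MinION, per the labels' protocols. Of tools, minimap2 2.14 appears in the submitters' processing notes. How reads were assigned, and to which genome build, is not stated there. In the deposited series table are the authors' estimated counts for 207067 isoform rows, not scaled for depth. The deposited per-sample tables hold a coverage signal, which equalled the estimated reads times 1.33 in each library and was used only for gene symbols and this check; 10 symbols that had turned into dates were replaced.

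Isoform rows were summed per gene, rounded and divided by the library total. Ratios carried exact conditional binomial (Clopper-Pearson) 95% intervals, which cover counting error only, and log2 medians a prior of 0.5 reads. Every member with at least 20 reads was named, and others mainly by count and range. The members and gene lists were chosen with earlier results of these data known. Gene positions come from Ensembl release 115 (WBcel235), matched by gene ID for 43 of 43 members. Scaling alternatives used edgeR 4.0.16 (TMM) and DESeq2 1.42.0 (size factors) on the rounded estimated counts, with no test. Other alternatives changed the totals, rows, minimum and bound. Scripts used Python 3.11.15 and scipy 1.17.1, and the interval rule was run on simulated data with counting error alone. Such data share the counting model of the intervals, so they cannot speak for variation between worms or for read assignment between copies. Protein and promoter features were not analysed here.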

Additional observations from a re-analysis of the deposited data

How the results depend on the processing

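No paired analysis was possible because each stage was 1 library, and for the same reason no replicate could be left out. The joint ratio of L1 to embryo, 0.936, was 1.71 with TMM factors, 1.77 with DESeq2 size factors, 1.27 without ribosomal protein and mitochondrial genes in the totals, and 1.42 on annotated transcript rows alone. Adult to L1, 1.14, was 1.08 with TMM factors and with DESeq2 size factors, 1.02 without ribosomal protein and mitochondrial genes, and 1.28 on annotated rows. Adult to embryo, 1.07, was 1.85, 1.91, 1.29 and 1.82 under the same 4 alternatives. In alternatives chosen after seeing the data, the 3 ratios were 1.10, 1.18 and 1.30 without gst-7, 1.02, 0.951 and 0.973 without gst-1, and 1.32, 0.928 and 1.23 without both. Members higher in L1 than in embryo numbered 3, and 8 with TMM factors, 8 with DESeq2 size factors, 6 without ribosomal protein and mitochondrial genes, 1 on annotated rows, 6 at a minimum of 10 reads, 6 with no minimum, 6 at a bound of 1.5-fold and 8 where the interval only had to leave out 1. Members lower in that pair numbered 4, and 0, 0, 2 and 0 under the first 4 of these, and 7 where the interval only had to leave out 1. For adult against L1, the 3 higher became 1 on annotated rows and 6 by the interval alone, and the 2 lower became 0 on annotated rows and 7 with a minimum of 10 reads, with no minimum, or by the interval alone. For adult against embryo, the 4 higher became 8 with TMM factors, with DESeq2 size factors and by the interval alone, and 2 on annotated rows, and the 3 lower became 0 on annotated rows and 6 by the interval alone. Of 19 calls of named genes over the pairs, 15 held with TMM factors, 15 with DESeq2 size factors, 16 without ribosomal protein and mitochondrial genes and 4 on annotated rows. The median share of the leading row, 60.3%, was 100% on annotated rows, a value fixed in advance for most genes because they have a single annotated row. Annotated rows hold fewer reads by construction, a lower minimum admits more genes and a looser bound calls more; the cause of the scaling differences was not tested. Depth limits the 19 members under 20 reads, which were left out of the counts; with no minimum, gst-8 and gst-41 were called higher in L1 than in embryo, and gst-8, gst-40, gst-11 and gst-41 lower in adult than in L1.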
